A study of Rattus norvegicus with 6 samples.

Results

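Matrix metalloproteinase (MMP) genes and the genes of their tissue inhibitors were followed in cultured rat aortic smooth muscle cells (RASMCs), chosen by gene symbol. The 10 members were Mmp2, Mmp3, Mmp9, Mmp11, Mmp12, Mmp14, Mmp19, Timp1, Timp2 and Timp3. All 10 had a row among the 22574 symbols of the count table. Bulk mRNA was sequenced from RASMCs in 6 libraries. The 3 libraries labelled CitH3+dsDNA came from cells challenged with citrullinated histone H3 together with double-stranded DNA, 2 components of extracellular traps, and the 3 control libraries (Ctr1 to Ctr3) from cells given bovine serum albumin. Per the study's methods the cells were primary cultures from the aorta of male Sprague-Dawley rats, freed of adventitia and endothelium, and no genetic change was made although the labels hold the treatment under genotype. The study states for its in vitro experiments in general that wells of cells from the same rat served as replicates. Its methods do not say so for these libraries by name. Under that statement the p-values measure the spread between wells and library preparations, not between animals. How long the cells were exposed is not given in the sources used here.

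MMPs are zinc-dependent proteases that are made as inactive proenzymes and cut proteins of the extracellular matrix. Tissue inhibitors of metalloproteinases (TIMPs) bind active MMPs and block them, and some also bind proenzymes. In the arterial wall, MMPs degrade collagen, elastin and proteoglycans, and in atherosclerosis they are studied for the thinning of the fibrous cap. The transcript level of such a gene says nothing about how much of its protein was secreted, activated or inhibited.

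Library totals lay between 17573905 and 18742395 counts, so 1 count was worth 0.0539 to 0.0567 CPM (the usual unit of counts scaled to library depth, here with TMM factors). All pairs of replicate libraries differed by more than counting error. All 8 smooth muscle markers were expressed well enough to be tested, with Myh11, the smooth muscle myosin heavy chain, at 6385 to 6856 counts in every library. Of these 8 markers 4 fell (Acta2, Tagln, Cnn1 and Smtn, by log2 fold changes of -0.69, -0.40, -1.57 and -0.21) and 1 rose (Myocd, 1.09). Over all genes tested, 0.262% were called lower and 1.94% higher. The fall of Smtn was not called by DESeq2 or limma-voom and held in 6 of the 15 alternative analyses, while the other 4 calls held in all 15. Among 13 macrophage and monocyte markers, 9 were tested and edgeR called 0, with 0 at an unadjusted p-value under 0.05 and 0 called by DESeq2 or limma-voom. Their summed level was 76.5 to 79.8 CPM in CitH3+dsDNA libraries and 78.1 to 81.4 CPM in controls, most of it from Cd14 and Csf1r. Of this list, Ptprc, which encodes the pan-leukocyte protein CD45, had 1 count in all libraries together, Itgam 2 and Cd163 1. Aif1 of the same list, too low to be tested, had counts of 8, 9 and 9 after CitH3+dsDNA and of 2, 2 and 3 in controls. Its groups did not overlap, with summed counts of 26 after CitH3+dsDNA and 7 in controls. Groups did not overlap in 19.1% of all genes tested, a set that leaves out Aif1. Among 6 genes listed as neutrophil markers, 3 were tested and edgeR, DESeq2 and limma-voom called 0. At least 1696 of all 12591 genes tested had an unadjusted p-value under 0.05 in edgeR, and 2 of these 3 did. These 2 were S100a8, with counts of 13, 15 and 16 against 7, 8 and 9 in controls, and S100a9, with 22, 23 and 24 against 11, 12 and 13. As S100a8 passed the filter on low counts only through its CitH3+dsDNA libraries, its presence among the tested genes already required a difference. Ly6g6d, also listed, is not the gene of the neutrophil antigen LY6G, and it had no count. Elane and Mpo had at most 8 counts in any library. The summed neutrophil markers reached 6.92 to 8.59 CPM in the CitH3+dsDNA libraries and 6.05 to 6.68 CPM in controls. Most of that sum came from Csf3r, which was not called (mean 5.48 CPM after CitH3+dsDNA and 4.84 CPM in controls). Mpo and Elane had fewer summed counts after CitH3+dsDNA, 14 against 19 and 0 against 2. The part of any other cell type in the results that follow was not tested, and in bulk RNA more cells of a type and more RNA per cell cannot be told apart.

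Mmp9 and Mmp12 rose after CitH3+dsDNA, and the other members that could be tested passed no threshold in either direction. Of the 10 members, 9 had enough counts to be tested, and 2 of the 9 were called, both higher. A gene was called where the quasi-likelihood test of edgeR gave it a Benjamini-Hochberg adjusted p-value under 0.05. Over all 12591 genes tested, 2.20% were called, 1.94% as higher and 0.262% as lower. As Mmp12 passed the filter on low counts only through its CitH3+dsDNA libraries, its presence among the tested genes already required a difference. No member was called lower, and 0 members had an unadjusted p-value under 0.05 in the lower direction in edgeR, with 0 called lower by DESeq2 or limma-voom. The median log2 fold change was 0.00 over the 9 members and 0.00 over all genes tested. The CPM of the groups did not overlap in 3 of the 9 members, Mmp9, Mmp12 and Mmp14, against 19.1% of all genes tested.

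**Figure D1:**
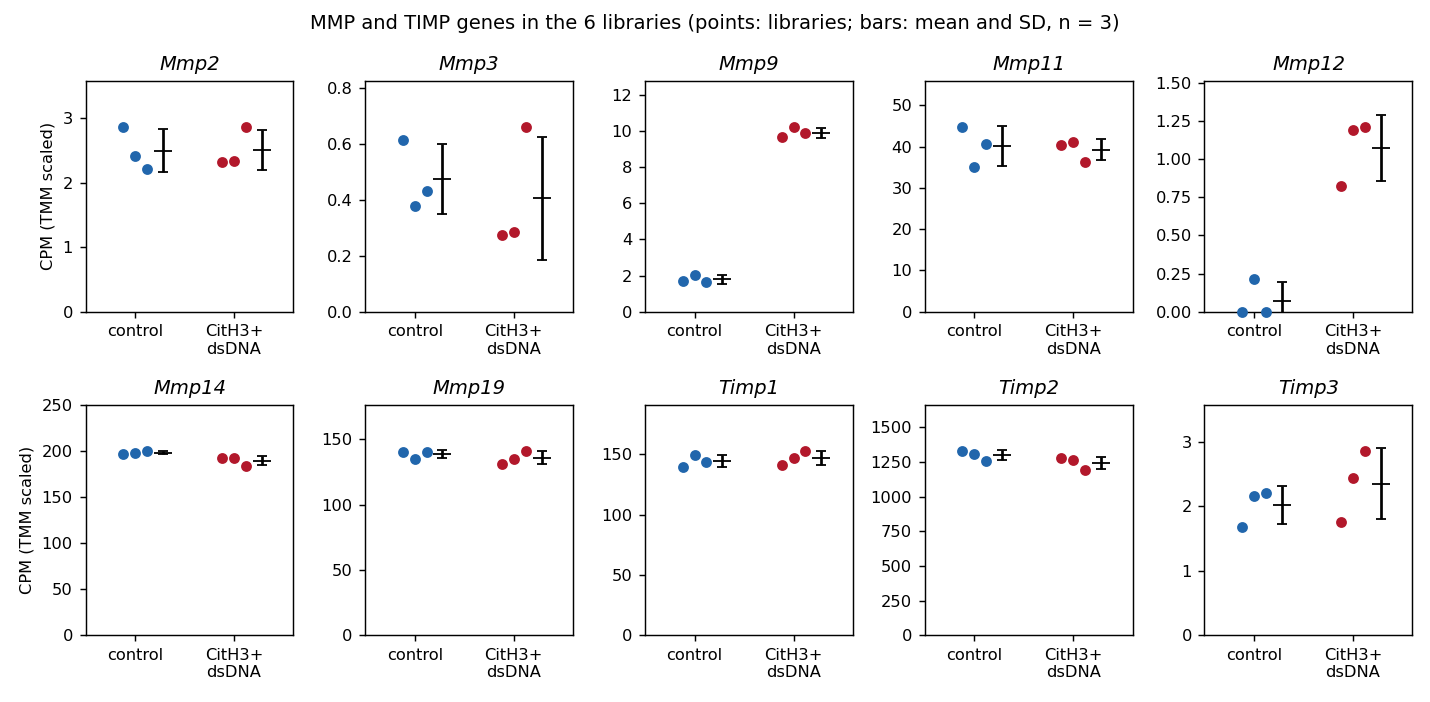
Expression of the 10 MMP and TIMP genes by group, in CPM scaled by TMM on a linear axis from 0, with a panel per gene. Points are libraries and bars the mean and SD (n = 3), with the bar of the Mmp12 controls cut at 0. The CitH3+dsDNA libraries lie above all controls for Mmp9 (9.65 to 10.2 CPM against 1.62 to 2.05) and Mmp12 (0.827 to 1.21 CPM against 0 to 0.216), below all controls for Mmp14 by a small margin, and overlap the controls for the other genes.

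The gelatinases Mmp2 and Mmp9, which cut denatured collagen and the type IV collagen of basement membranes, were both measured, and only Mmp9 was called. Counts of Mmp9 were 175, 180 and 179 after CitH3+dsDNA, while the controls gave 30, 38 and 30. All 3 challenged libraries stood far above all 3 controls. The level was 9.91 ± 0.285 CPM (SD, n = 3) after CitH3+dsDNA and 1.78 ± 0.233 CPM (SD, n = 3) in controls. This was a log2 fold change of 2.47 (standard error, SE, 0.15, 95% interval 2.14 to 2.80, edgeR adjusted p = 1.88e-07), or 5.54-fold. In fold change Mmp9 stood at rank 17 among the 12591 genes tested. The call held in all 15 alternative analyses, where the log2 fold change ranged from 2.40 to 2.58. The 3 CitH3+dsDNA counts of Mmp9 lay close together, with an SD of 2.65 counts where the square root of their mean was 13.3. Of the 2283 genes with a mean of 100 to 300 counts in that group, 2.63% had a ratio of variance to mean as low as that of Mmp9, 0.0393.

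Mmp2 had counts of 42, 41 and 52 after CitH3+dsDNA and of 51, 45 and 41 in controls. The groups overlapped, at 2.50 ± 0.314 CPM and 2.50 ± 0.330 CPM (SD, n = 3 each), with a log2 fold change of 0.00 (95% interval -0.45 to 0.46, edgeR adjusted p = 0.998), so a change of Mmp2 within that interval was not detectable at this depth. The difference between the responses of Mmp2 and Mmp9 was not itself tested, and their 95% intervals did not overlap.

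Mmp12, which encodes macrophage metalloelastase, an enzyme that degrades elastin, was low in all libraries. Its counts were 15, 21 and 22 after CitH3+dsDNA and 0, 4 and 0 in controls. The groups did not overlap, and 2 of the 3 controls had no read on the gene. The fitted log2 fold change was 3.77 (SE 0.70, 95% interval 2.26 to 5.28, edgeR adjusted p = 0.00833), a value that depends on the few control counts and ranged from 3.22 to 7.29 when single libraries were left out. From the summed counts, 58 against 4, the ratio was 14.8, with an exact 95% interval of 5.47 to 56.1 that covers counting error only. The value rests on control replicate 2, which held all control counts. Without it, the remaining controls had no count, and the challenged libraries were 13.1-fold higher than a chosen floor of 3 counts over these controls. That value leaves out the counting error of the challenged libraries. The adjusted p-value of Mmp12 was at most 0.0480, reached without control replicate 1, in the 14 alternatives that tested it.

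**Figure D2:**
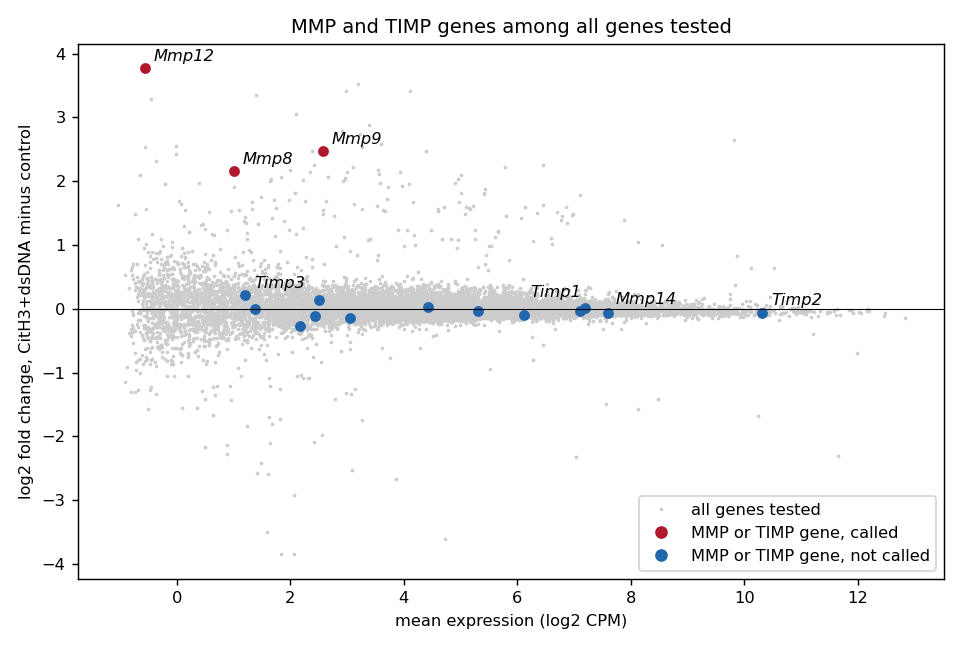
Log2 fold change (CitH3+dsDNA minus control) against mean expression in log2 CPM for all 12591 genes tested, with the 16 tested MMP and TIMP genes as large points, red where the adjusted p-value was under 0.05. Mmp12 (3.77), Mmp9 (2.47) and Mmp8 (2.16) stand above the band of genes around 0, while the inhibitors and the more highly expressed proteases lie near the line at 0.

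Mmp3, stromelysin 1, which cuts many matrix proteins and activates other MMP proenzymes, was too low to be tested. Its counts were 5, 5 and 12 after CitH3+dsDNA and 11, 7 and 8 in controls, with overlapping groups. The summed counts of 22 against 26 gave a ratio of 0.863 (exact 95% interval 0.466 to 1.58, counting error only). Mmp3 and Mmp10, stromelysin 2, are close paralogs, so reads can be misassigned between them.

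Mmp14, Mmp19 and Mmp11 were expressed in all libraries without a called change. Mmp14, the membrane-anchored collagenase that also activates proMMP2, had 3475, 3400 and 3336 counts, and the controls 3509, 3682 and 3716. All 3 challenged libraries lay below the controls in CPM, at 189 ± 4.96 against 198 ± 1.80 CPM (SD, n = 3), a log2 difference of -0.07 (95% interval -0.14 to 0.01, edgeR adjusted p = 0.427), which did not pass the threshold. For Mmp19, a broadly expressed secreted MMP, counts were 2382, 2371 and 2555 against 2497, 2500 and 2603. Those groups overlapped in CPM, and the log2 fold change was -0.03 (95% interval -0.12 to 0.06, edgeR adjusted p = 0.806). Mmp11, or stromelysin 3, which is activated by furin inside the cell, had counts of 731, 724 and 659 against 798, 650 and 754. Its groups overlapped as well, with a log2 fold change of -0.03 (95% interval -0.21 to 0.15, edgeR adjusted p = 0.904). The intervals of these 3 proteases reached from 0.864-fold to 1.11-fold, both bounds those of Mmp11.

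No inhibitor gene was called. Timp1, an inducible secreted inhibitor that binds proMMP9, had counts of 2559, 2589 and 2774 after CitH3+dsDNA and of 2492, 2777 and 2679 in controls. These were 147 ± 5.84 and 145 ± 5.02 CPM (SD, n = 3), which gave a log2 fold change of 0.02 (95% interval -0.07 to 0.12, edgeR adjusted p = 0.855). Timp2, which binds proMMP2 and takes part in its activation by MMP14, had counts of 23195, 22240 and 21689 against 23751, 24291 and 23350. The levels were 1245 ± 44.6 and 1299 ± 37.3 CPM (SD over 3 libraries), and the log2 fold change was -0.06 (95% interval -0.14 to 0.02, edgeR adjusted p = 0.482). The ranges of Timp1 and of Timp2 overlapped between the groups in CPM. Timp3, the inhibitor that is bound to the matrix, had counts of 32, 43 and 52 against 30, 40 and 41. With so few counts its interval was wide, a log2 fold change of 0.22 (95% interval -0.31 to 0.75, edgeR adjusted p = 0.736), and the interval of the fold change ran from 0.809 to 1.68. In the RefSeq annotation of a later assembly, GRCr8, Timp1 overlaps Syn1, Timp2 overlaps Cep295nl, Timp3 overlaps Syn3 and Mmp11 overlaps Chchd10, and the strand setting of the counting is not given in the sources used here, so reads of these pairs may not be told apart.

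Protease and inhibitor were then set against each other within each library, which needs no scaling between libraries. Per 1000 counts of Timp1, Mmp9 had 68.4, 69.5 and 64.5 counts after CitH3+dsDNA and 12, 13.7 and 11.2 in controls. The groups did not overlap, and the ratio was 5.50 times higher after CitH3+dsDNA, a log2 difference of 2.46 (exact two-sided permutation p = 0.1, Benjamini-Hochberg adjusted 0.300 over 3 ratios). With 3 libraries against 3, no exact permutation p-value can be lower than 0.1. Per 1000 counts of Timp2, Mmp2 had 2.02 ± 0.330 (SD, n = 3) after CitH3+dsDNA and 1.92 ± 0.204 (SD, n = 3) in controls, a log2 difference of 0.07 (exact permutation p = 0.7, adjusted 1). Mmp14 had 152 ± 2.09 and 153 ± 5.80 per 1000 counts of Timp2 (SD, n = 3), a log2 difference of -0.01 (exact permutation p = 1, adjusted 1). The groups overlapped in both of these ratios, and their order changed when single libraries were left out. Counts were not divided by transcript length, so the ratios compare libraries and not the abundance of one gene with that of another.

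**Figure D3:**
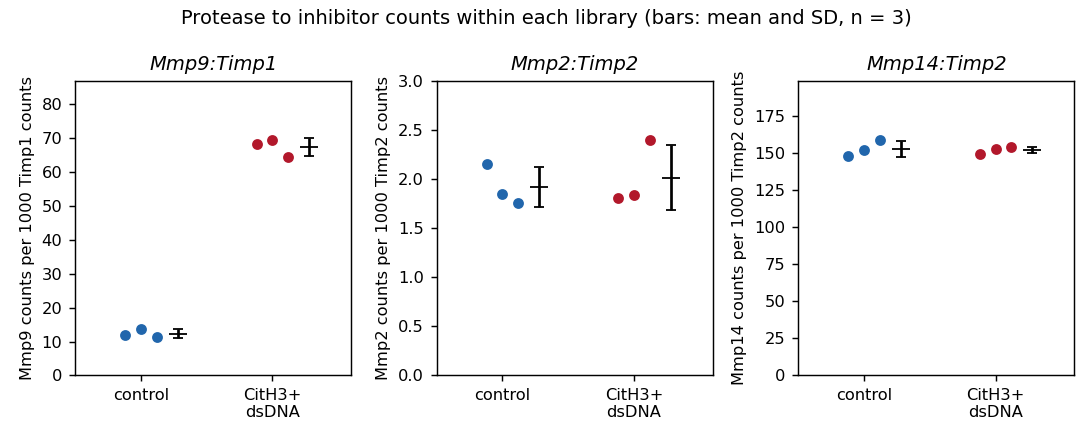
Counts of Mmp9 per 1000 counts of Timp1, and of Mmp2 and Mmp14 per 1000 counts of Timp2, within each library, on linear axes from 0. Points are libraries and bars the mean and SD (n = 3). Only the Mmp9 panel shows groups apart, at 64.5 to 69.5 after CitH3+dsDNA and 11.2 to 13.7 in controls.

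Of the other MMP and TIMP symbols that were looked up, 17 were in the table and 7 could be tested. Mmp8, neutrophil collagenase, which cuts fibrillar collagens, was called as the only one of the 7, against 2.20% of all genes tested. It had counts of 45, 56 and 67 after CitH3+dsDNA, spaced equally, and counts of 17, 15 and 6 in controls. The groups were well apart, at 3.12 ± 0.607 CPM (SD, n = 3) against 0.695 ± 0.330 CPM (SD, n = 3), and Mmp8 rose by 2.16 on the log2 scale (SE 0.33, 95% interval 1.44 to 2.88, edgeR adjusted p = 0.00217), or 4.47-fold. It stayed between 1.82 and 2.45 in the 14 alternatives that tested it, and all 14 called it. Matrilysin Mmp7 (log2 fold change -0.15, 95% interval -0.40 to 0.10), stromelysin Mmp10 (-0.12, -0.48 to 0.25) and the membrane-type genes Mmp15 (-0.09, -0.20 to 0.01), Mmp16 (0.14, -0.28 to 0.55) and Mmp24 (-0.27, -0.63 to 0.10) were not called, nor was Mmp28 (0.03, -0.14 to 0.19). Collagenase Mmp13 had counts of 7, 2 and 3 against 2, 10 and 2, and Mmp20 had 13, 5 and 12 against 7, 6 and 9. Timp4 had 8, 7 and 9 against 13, 5 and 10. These 3 genes were too low to be tested, as were 7 others with at most 9 counts in any library, 2 of which, Mmp1b and Mmp27, had no count.

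**Figure D4:**
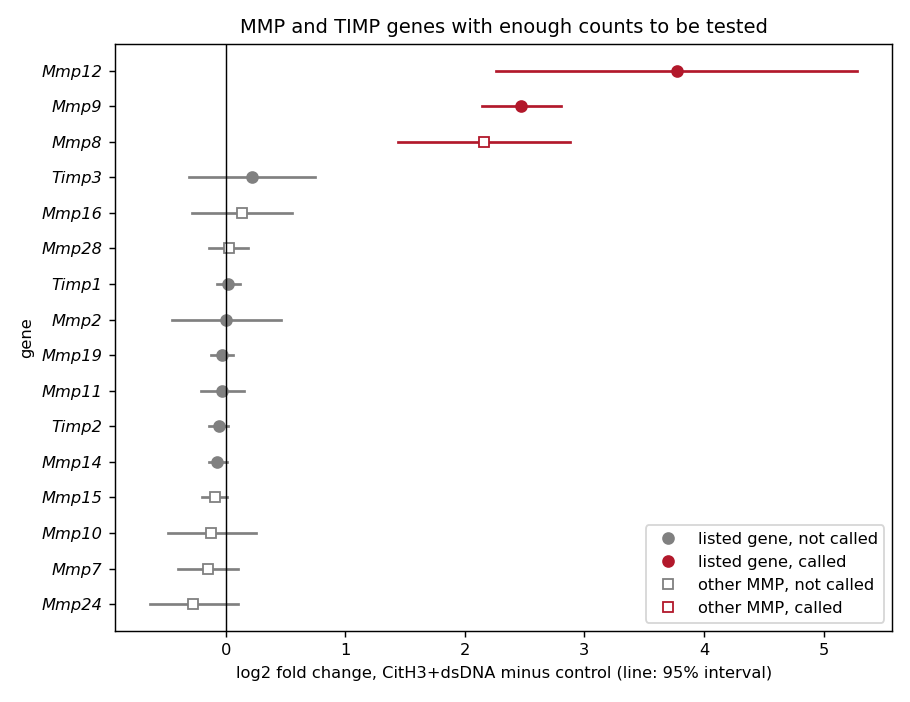
Log2 fold change (CitH3+dsDNA minus control) with its 95% interval for the 16 MMP and TIMP genes with enough counts to be tested, sorted by size. Circles are members and squares other MMP genes, red where the adjusted p-value was under 0.05. The intervals of Mmp12, Mmp9 and Mmp8 begin at 2.26, 2.14 and 1.44, and those of the other 13 genes include 0.

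Mmp12 and Mmp8 lie in the same run of 10 MMP genes on rat chromosome 8, in the order Mmp13, Mmp12, Mmp1b, Mmp3, Mmp1, Mmp10, Mmp8, Mmp27, Mmp20 and Mmp7, in the RefSeq annotation of GRCr8. Only 4 of these 10 genes were tested, Mmp12 and Mmp8 with a rise and Mmp10 and Mmp7 without a call. Mmp9 lies elsewhere, on chromosome 3. The 250 bases before the RefSeq start of 4 genes of the run are shown to set the 2 that rose beside 2 stromelysin genes that were not called or not tested, in the direction of transcription. Capitals mark the AP-1 motif TGANTCA, the GAS motif TTCNNNGAA and the TATA box TATAAA, each searched on both strands (the AP-1 and GAS motifs read the same on both, and 2 TATA boxes of Mmp10 overlap). AP-1 factors are the Fos and Jun proteins, which act at many MMP promoters, and the GAS motif is bound by STAT factors. The windows are from GRCr8, all on the plus strand, at chr8:12866402-12866651 for Mmp12, chr8:13008640-13008889 for Mmp8, chr8:12925031-12925280 for Mmp3 and chr8:12974457-12974706 for Mmp10.
Mmp12: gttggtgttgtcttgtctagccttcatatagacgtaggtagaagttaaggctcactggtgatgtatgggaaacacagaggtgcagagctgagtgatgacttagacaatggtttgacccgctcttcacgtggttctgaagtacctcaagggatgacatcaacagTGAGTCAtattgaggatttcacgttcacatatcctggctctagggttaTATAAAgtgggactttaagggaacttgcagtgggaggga
Mmp8: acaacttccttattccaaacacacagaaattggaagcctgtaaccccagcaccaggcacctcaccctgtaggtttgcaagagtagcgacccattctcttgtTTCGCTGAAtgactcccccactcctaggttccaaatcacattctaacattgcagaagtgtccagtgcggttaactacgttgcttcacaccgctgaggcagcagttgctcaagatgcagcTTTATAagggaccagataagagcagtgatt
Mmp3: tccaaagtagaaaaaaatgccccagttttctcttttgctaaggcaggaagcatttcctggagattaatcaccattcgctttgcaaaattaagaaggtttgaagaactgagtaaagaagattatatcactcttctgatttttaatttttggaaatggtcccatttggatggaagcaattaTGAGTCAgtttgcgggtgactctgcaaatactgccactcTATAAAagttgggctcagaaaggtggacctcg
Mmp10: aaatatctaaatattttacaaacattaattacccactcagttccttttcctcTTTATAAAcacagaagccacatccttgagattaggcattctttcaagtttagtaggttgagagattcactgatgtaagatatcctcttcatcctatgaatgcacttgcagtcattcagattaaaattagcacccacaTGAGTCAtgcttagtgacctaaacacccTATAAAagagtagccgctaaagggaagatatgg

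The window of Mmp12 held an AP-1 motif whose first base lay 87 bases before the start, and Mmp3 and Mmp10 held the same letters at 71 and 61 bases. Mmp8 held no AP-1 motif in its window and had a GAS motif 149 bases before the start. Over the run, 7 of 10 windows held an AP-1 motif, 2 held a GAS motif and 8 a TATA box, against 6.34%, 7.67% and 12.9% of all 33469 promoter windows of the same length. Neither the NF-kB motif, searched by its consensus, nor the GC box GGGCGG was found in any window of the run, against 6.33% and 30.5% of all windows. The windows of Mmp11, Timp1, Timp2 and Timp3 held 3, 1, 1 and 3 GC boxes and none of the other 4 motifs. Within the run, the AP-1 letters stood before Mmp12, which rose, and before Mmp10 and Mmp7, which were not called. Mmp2, Mmp9, Mmp14 and Mmp19 were not analysed here for motifs. A match describes letters in this window and shows no binding.

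Genes tied to the function of MMPs were read from the same fit. Among 21 genes for transcription factors and cytokines tied to MMP transcription, 20 were tested and 2 were called, both higher. Of all genes tested, 1.94% were called higher. Il1b, the cytokine interleukin 1 beta, had 116, 109 and 120 counts where controls had 22, 23 and 33, and rose by 2.17 on the log2 scale (SE 0.19, edgeR adjusted p = 9.74e-06). Klf4, a transcription factor of smooth muscle phenotype switching, had 137, 110 and 141 against 34, 45 and 43, and rose by 1.69 on the log2 scale (SE 0.17, edgeR adjusted p = 3.69e-05). None of the AP-1 genes Fos, Fosb, Fosl1, Fosl2, Jun, Junb and Jund was called, with log2 fold changes from -0.17 (Fosl1) to 0.07 (Fos). Nfkb1 (0.01) and Rela (-0.01), subunits of NF-kB, and Ets1 (0.02) were not called either. Tnf was not tested, having 69 counts in control replicate 3 and none in the other 5 libraries.

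Of the 18 genes of proMMP activation and the plasmin system, 10 were tested and edgeR called 0, with 1 at an unadjusted p-value under 0.05 and 0 called by DESeq2 or limma-voom. Plat, tissue plasminogen activator, had 9759, 9018 and 9453 counts against 9742, 9387 and 9454, a log2 fold change of 0.01 (95% interval -0.07 to 0.09). Furin, which activates proMMP11 and proMMP14, was at -0.05 (95% interval -0.13 to 0.02). Plau, the urokinase gene, had 1 count in all libraries together. Among 15 genes of MMP inhibition, anchoring and clearance, 10 were tested and edgeR called 0, with 2 at an unadjusted p-value under 0.05 and 0 called by DESeq2 or limma-voom. Over all 12591 genes tested, at least 1696 had an unadjusted p-value under 0.05 in edgeR. Reck, a membrane-anchored MMP inhibitor, had a log2 fold change of 0.12 (95% interval -0.07 to 0.31), Lrp1, a receptor that clears MMPs, of 0.01 (-0.12 to 0.13), and Bsg, the MMP inducer EMMPRIN, of -0.07 (-0.15 to 0.00).

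Other proteases that cut matrix proteins were called singly, where 1.94% of all genes tested were called higher. At least 1696 of all 12591 genes tested had an unadjusted p-value under 0.05 in edgeR. Of 18 ADAM and ADAMTS genes tested, 1 rose, and 7 had such a p-value, all 7 higher. The number called was 1 in DESeq2 and in limma-voom, 2 with scaling by library size alone, where Adamts12 was added, and 3 with robust dispersion, where Adam10 and Adamts12 were added (log2 fold changes of 0.21 and 0.20, edgeR adjusted p = 0.0903 and 0.0762 in the main analysis). Adamts1, which cuts the proteoglycans versican and aggrecan, had 2933, 3100 and 3300 counts where controls had 1022, 1011 and 1100. This was 173 ± 10.3 against 57.0 ± 2.40 CPM (SD, n = 3), a rise of 1.6 on the log2 scale (SE 0.05, edgeR adjusted p = 4.33e-10). Of 10 cathepsin and cystatin genes tested, 1 rose. Ctsl, the lysosomal cysteine protease cathepsin L, which can degrade elastin and collagen, had counts of 27638, 26720 and 28995 against 4500, 5600 and 3433, a rise of 2.65 on the log2 scale (SE 0.12, edgeR adjusted p = 1.15e-08). Of the 12 counts of Adamts1 and Ctsl, 5 were multiples of 100. Other cathepsin genes were not called, with Ctsb at -0.05 (95% interval -0.12 to 0.02) and Ctsd at -0.04 (-0.11 to 0.03), and the cathepsin inhibitor Cst3 was at -0.10 (-0.18 to -0.01, edgeR adjusted p = 0.286).

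Of all genes tested, 1.94% were called higher and 0.262% lower. Among 22 tested genes for proteins that MMPs cut, 2 fell and 1 rose. The genes that fell were Col1a1 and Col1a2, which together make type I collagen, with log2 fold changes of -2.31 (SE 0.07, edgeR adjusted p = 1.62e-10) and -2.33 (SE 0.26, edgeR adjusted p = 9.18e-05). Counts of Col1a1 were 16918, 19877 and 21222 against 95878, 96424 and 101346 in controls. Those of Col1a2 were 656, 897 and 788 against 5733, 2352 and 3889, so its controls were widely spread. Col1a2 was not called with robust dispersion estimates (edgeR adjusted p = 0.112). Its log2 fold change ranged from -2.61 to -1.95 when single libraries were left out. Vcan, versican, rose slightly, with a log2 fold change of 0.23 (SE 0.05, edgeR adjusted p = 0.0250), a call that was lost in 5 of 15 alternatives, with an adjusted p-value of up to 0.176 without CitH3+dsDNA replicate 1. Elastin Eln (-0.17, 95% interval -0.64 to 0.29), fibronectin Fn1 (0.00, -0.10 to 0.09), Col3a1 (0.00, -0.08 to 0.08) and the type IV collagen gene Col4a1 (-0.01, -0.08 to 0.06) were not called.

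**Figure D5:**
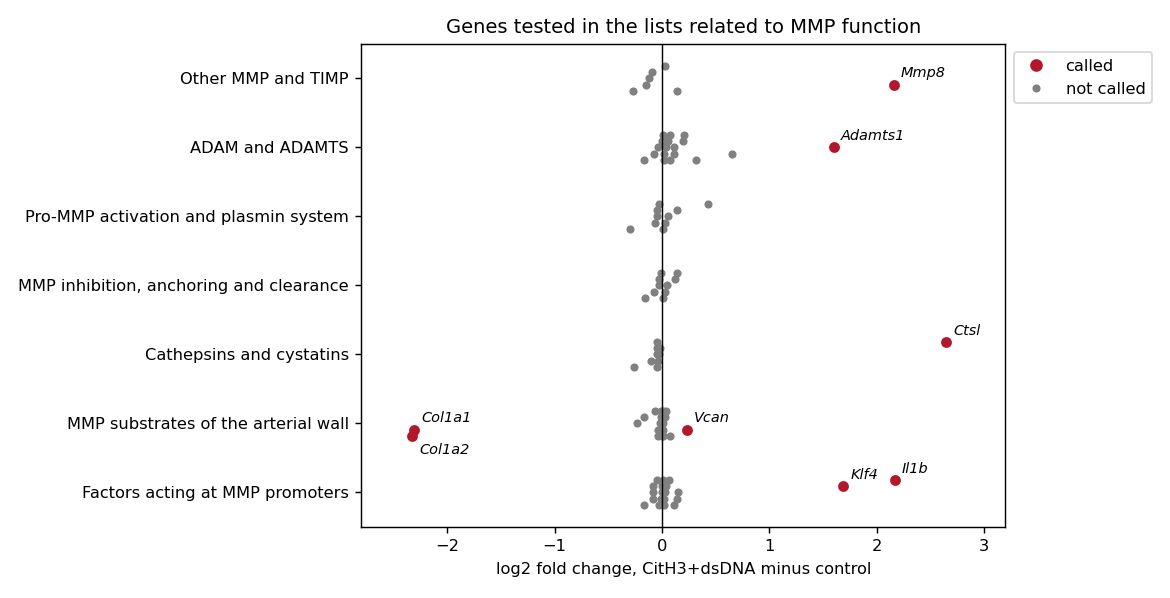
Log2 fold change (CitH3+dsDNA minus control) of each gene tested in 7 lists of genes related to MMP function, with called genes in red and named, and points shifted vertically within a list for legibility. In the lists of activation and of inhibition no gene is called, and each other list holds 1 to 3 called genes, from -2.33 (Col1a2) to 2.65 (Ctsl).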

How the data were processed

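Poly(A)-selected stranded mRNA libraries, 6 in all, were sequenced. Per the labels and the study's methods the authors aligned reads to Rnor6.0 with TopHat2 2.1.1 and counted them per gene with HTSeq. The strand setting is not given in the sources used here. The submitters' processing notes also name Cufflinks 2.2.1 and Cuffdiff. The authors deposited raw counts of reads for 22574 gene symbols, of which 5367 had no count. Genes kept by filterByExpr (minimum 10 counts) numbered 12591. These were scaled by TMM and tested, CitH3+dsDNA against control, with edgeR 4.0.16 (quasi-likelihood F-test, R 4.3.3). A gene was called at a Benjamini-Hochberg adjusted p-value under 0.05 over all genes tested. DESeq2 1.42.0, which the study used, and limma-voom (limma 3.58.1) were among 15 alternatives. Ratios were compared by exact two-sided permutation tests. Intervals on summed counts cover counting error only. The fitting script was checked on simulated counts.

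The members and the gene lists were chosen with earlier results of these data known. All members were named, then other MMP and TIMP genes that were called or had at least 10 counts in a library, the called genes of each list, and Reck, Plau, Plat, Furin, Bsg and Lrp1, and 1 further gene is not reported here. Other genes that were not called, cell type markers included, were named after their values were seen. Replicate numbers did not pair the samples. Promoter windows, gene order and overlaps came from RefSeq (GRCr8), which matched 17139 of the 22574 symbols and gave windows for 6 of 10 members. Its coordinates were not combined with those of Rnor6.0.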

Additional observations from a re-analysis of the deposited data

How the results depend on the processing

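Mmp9, Mmp12 and Mmp8 kept their direction and their call in every alternative that could test them, and no other member was called in any of the 15. With at least 10 counts in every library, only 1 MMP or TIMP member was called, since Mmp12 could not be tested there, and no other MMP or TIMP gene was called, since Mmp8 could not be tested either. The number of genes called lower was 58 with no low-count filter and 50 with robust dispersion. Leaving out 1 library at a time gave 164 to 357 genes called in all, 147 to 300 higher, 17 to 57 lower, 7 to 10 in the related lists and 2 to 2 among members. The log2 differences of the ratios then ranged from 2.39 to 2.54 for Mmp9 to Timp1, from -0.07 to 0.15 for Mmp2 to Timp2 and from -0.03 to 0.02 for Mmp14 to Timp2. With a replicate block, 212 genes were called in all, 2 of them members, and 7 in the related lists, where Vcan was lost (adjusted p = 0.0549 from edgeR). The deviations of same-numbered libraries correlated at -0.0458, 0.00452 and 0.0355, so the numbers were not taken to pair them. The causes of these shifts were not tested. Depth limits Mmp3, Mmp12, Mmp2 and Timp3. Under the study's general statement that replicates were wells of the same rat, this limits all p-values.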

Other observations

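Multiples of 100 were unevenly spread over the count table, a pattern noticed after the values were seen. Among counts of at least 1000, 23 of 522 (4.41%) were such multiples in the genes called, over 17 genes, and 224 of 21806 (1.03%) in the genes tested and not called. Adamts1 held 3 of these (3100, 3300 and 1100) and Ctsl 2 (4500 and 5600), while Col1a1, Col1a2 and Vcan held none. Among the members, Mmp14 held 1 (3400) and Mmp19 held 1 (2500), each among 6 counts of at least 1000, and neither gene was called. Timp1 and Timp2 held none. Mmp9, Mmp12 and Mmp8 had no count of 1000 or more, so the measure does not bear on them. These shares are a description of the deposited counts. What lies behind them was not tested.

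Cathepsin K, a collagen-degrading cysteine protease, was too low to be tested in the main analysis. Ctsk had counts of 11, 5 and 11 after CitH3+dsDNA and of 2, 2 and 1 in controls, summed 27 and 5. The groups of Ctsk did not overlap. This was true of 19.1% of all genes tested in the main analysis, a set that leaves out Ctsk. Ctsk could be tested in 6 of the alternatives and was called in 1 of them, without CitH3+dsDNA replicate 2 (edgeR adjusted p = 0.0479). It was not called with no low-count filter (edgeR adjusted p = 0.0874) or by DESeq2 (adjusted p = 0.293).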
